A study of Homo sapiens with 9 samples.

Results

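The 35 genes described here encode aminoacyl-tRNA synthetases, the enzymes that attach each amino acid to its transfer RNA. They were taken from the count table by gene symbol, out of 20463 annotated genes. By their names 19 encode enzymes of the cytosol or enzymes shared by the cytosol and the mitochondrion, and 16 encode enzymes of the mitochondrion. All 35 passed the filter on low counts and were among the 13968 genes tested. Polyadenylated RNA was sequenced from A375, a human melanoma cell line grown in DMEM with serum, at 48 h. The 3 groups were untreated control cells, cells given Salvianolic acid B (SalB) at 100 µM and cells given SalB at 200 µM, with 3 libraries in each. SalB is a phenolic compound of Salvia miltiorrhiza root. The labels call the libraries biological replicates and give 1 batch value for all of them, and every group is the same single cell line, so the p-values below measure the spread between cultures of that line.

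A synthetase recognises its amino acid and its transfer RNAs and joins them at the cost of ATP, and many synthetases also hydrolyse wrongly charged products. Cytosolic and mitochondrial translation mostly use separate synthetase genes, all of them nuclear. KARS1 (lysine) and GARS1 (glycine) each supply both compartments, EPRS1 joins the glutamate and the proline enzyme in a single protein, and mitochondrial glutaminyl-tRNA is made without a glutaminyl synthetase. Several cytosolic synthetases assemble with the scaffold proteins AIMP1, AIMP2 and EEF1E1 into the multisynthetase complex. When an amino acid runs short, uncharged transfer RNA activates the kinase GCN2, and the transcription factor ATF4 raises amino acid transporters, biosynthetic enzymes and a number of cytosolic synthetases. WARS1, the tryptophan enzyme, is in addition a gene that interferon gamma induces in many human cells.

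Total counts were 27348621 to 30629685 per library. The third library of the 200 µM group stood apart: mitochondrially encoded mRNAs took 4.75% of its counts, against 1.83% and 1.87% in the other 200 µM libraries, 2.86% to 3.15% at 100 µM and 2.11% to 2.32% in control. Synthetases whose call at 200 µM changed without it are named with the results. Melanocyte and melanoma markers summed to 671.5 to 752.6 CPM in control, 963.5 to 999.8 CPM at 100 µM and 890.3 to 1056.5 CPM at 200 µM, mostly from SOX10 and CSPG4. Within that list MITF, the melanocyte lineage factor, was lower at 100 and 200 µM, at -0.70 ± 0.15 and -0.52 ± 0.15, and S100B was higher at 100 µM and lower at 200 µM, at 0.58 ± 0.10 and -1.13 ± 0.10. Marker sums of other cell types also moved. For fibroblast markers they were 17.9 to 19.4 CPM in control, 49.0 to 52.7 CPM at 100 µM and 24.2 to 30.6 CPM at 200 µM. For epithelial markers they were 235.0 to 243.6 CPM in control, 311.3 to 343.9 CPM at 100 µM and 299.4 to 396.4 CPM at 200 µM, and for endothelial markers 10.97 to 12.5, 4.02 to 4.18 and 10.7 to 12.4 CPM in the same order. The sum of 6 leukocyte markers stayed at or below 4.41 CPM, with CD3E at 0 in every library. The part of these markers in the synthetase results was not tested. CPM are counts scaled to TMM-adjusted library size, and RPKM are the same values per kilobase of exon. In bulk RNA a change per cell and a change in the number of cells that carry the transcript cannot be told apart. Counting did not state a strand setting, so 5 members whose exons overlap other genes over at least 10% of their length carry extra doubt. These are SARS2 with 57.0%, VARS2 with 21.99%, HARS2 with 15.8%, MARS1 with 13.3% and WARS1 with 10.6%.

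In untreated cells the cytosolic genes stood well above the mitochondrial ones per length of transcript. RARS1 (arginine) had the highest level at 100.5 ± 3.15 RPKM, followed by TARS1 (threonine) at 89.1 ± 2.47, NARS1 (asparagine) at 85.2 ± 2.73 and KARS1 at 84.9 ± 0.877 RPKM (SD, n = 3 each). In the order of all 35 control levels, 11 of the 34 neighbouring pairs had overlapping libraries, among them TARS1 with NARS1 and NARS1 with KARS1. The median was 44.6 RPKM over the 18 cytosolic genes other than VARS1 and 6.64 RPKM over the 15 mitochondrial genes other than VARS2. Across the 17 pairings of a cytosolic with a mitochondrial gene for the same amino acid, the cytosolic gene had the higher level in 16. The exception was isoleucine, with IARS2 at 41.9 ± 1.32 RPKM and IARS1 at 25.7 ± 0.249 RPKM (SD, n = 3 each). The tyrosine pair was level, at 19.5 ± 0.463 RPKM for YARS1 and 18.9 ± 0.467 RPKM for YARS2.

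**Figure D1:**
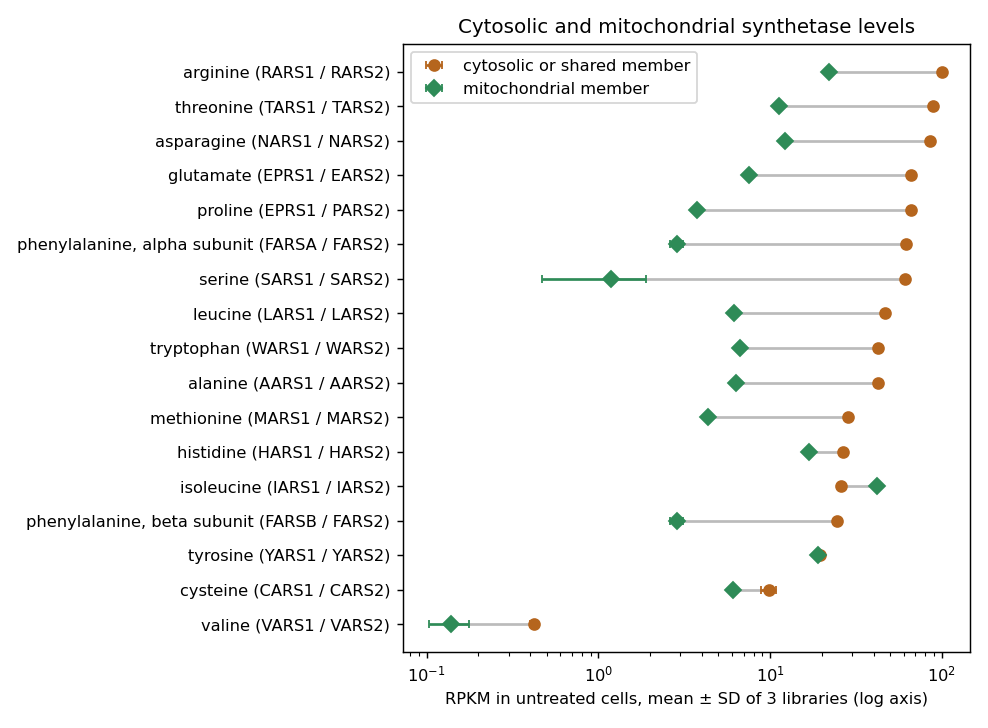
Level of the cytosolic or shared gene (circles) and of the mitochondrial gene (diamonds) for each amino acid in untreated A375 cells, in RPKM on a log axis; points are means and bars SD of 3 libraries, and FARS2 and EPRS1 appear in more than 1 row. The mitochondrial gene lies to the right of its partner for isoleucine, the tyrosine pair coincides, and both valine genes sit far to the left at 0.421 and 0.139 RPKM.

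Both valine genes were close to absent from the table. VARS1 had 0.421 ± 0.0239 RPKM and VARS2 0.139 ± 0.0364 RPKM in control (SD, n = 3), although VARS1 is the only cytosolic enzyme for valine. They lie in the major histocompatibility region of chromosome 6. Over 103 protein-coding genes of the region with counts in all 9 libraries, the control median was 0.550 RPKM. Over 577 such genes on the rest of the chromosome it was 3.93 RPKM. RPS18, a ribosomal protein gene inside that region, had 39.4 RPKM, against a median of 377 RPKM over 30 other small-subunit genes. The low level is thus shared with neighbouring genes, and its reason was not tested. VARS1 values below compare libraries with each other and give no absolute level.

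More synthetase mRNAs were called higher than lower against control at each dose. Calls rest on the quasi-likelihood F test of edgeR over all 13968 genes, at a Benjamini-Hochberg adjusted p under 0.05, and fold changes are log2 ± SE. At 100 µM against control, 7 of 19 cytosolic and 4 of 16 mitochondrial genes were higher and none was lower, where 18.9% of all genes tested were higher and 18.2% lower. The median log2 fold change was 0.10 over the cytosolic and 0.20 over the mitochondrial genes, beside -0.01 over all genes. At 200 µM against control, 6 cytosolic genes and 1 mitochondrial gene were higher and 1 mitochondrial gene was lower, beside 19.8% higher and 17.5% lower among all genes. Over all 35 members the share called higher at 200 µM was thus close to that of all genes. The medians there were 0.09 for the cytosolic genes, -0.11 for the mitochondrial genes and 0.00 for all genes. Without the first control library 3 cytosolic genes were higher at 200 µM.

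The 2 doses did not call the same genes. AARS1, GARS1, IARS1 and YARS1 were called at both doses, 7 genes at 100 µM and not at 200 µM, and 4 genes at 200 µM and not at 100 µM. Both sets of calls use the same control libraries. Summed over the 19 cytosolic genes, the level was 4436 ± 79.1 CPM in control, 4733 ± 112 CPM at 100 µM and 5133 ± 276 CPM at 200 µM (SD, n = 3 each). In these TMM-scaled values the libraries of the 3 groups did not overlap. As a share of unscaled counts the doses did overlap, at 0.482% to 0.500% at 100 µM and 0.489% to 0.508% at 200 µM, both above control at 0.435% to 0.445%. Of the mean CPM sums WARS1 alone made up 270 CPM in control, 279 CPM at 100 µM and 573 CPM at 200 µM. With WARS1 set aside, the cytosolic sums of the 100 µM and 200 µM libraries overlapped. The first 200 µM library had 4928 CPM, 534 CPM of it from WARS1, and the first 100 µM library 4852 CPM, 285.5 CPM of it from WARS1. The third 200 µM library had 5447 CPM with 653 CPM from WARS1. Over the 16 mitochondrial genes the sum was 661 ± 6.50 CPM in control, 747 ± 17.5 CPM at 100 µM and 622 ± 61.4 CPM at 200 µM (SD, n = 3 each). Here the 100 µM libraries lay above all others, while the 200 µM libraries overlapped the control libraries.

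**Figure D2:**
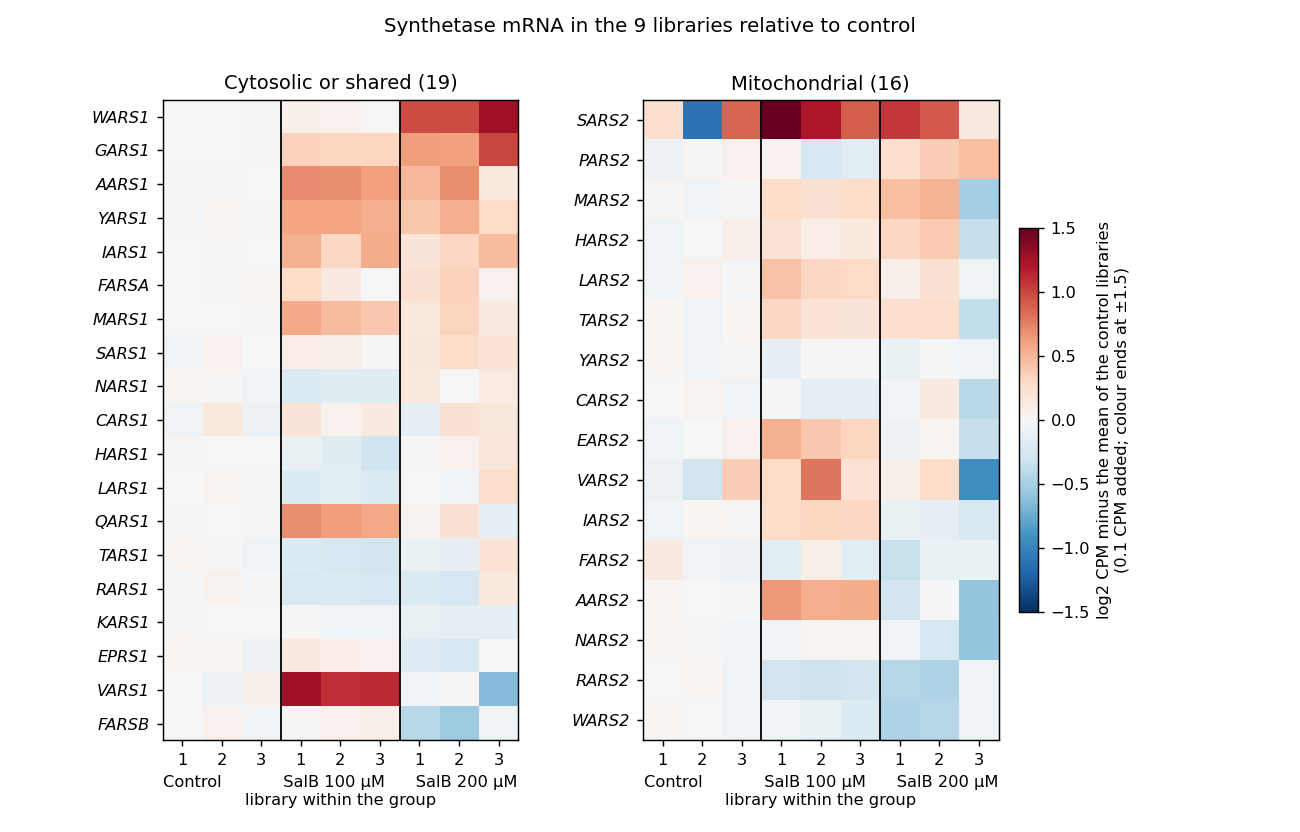
Level of each synthetase mRNA in the 9 libraries as log2 CPM (0.1 CPM added) minus the mean of the control libraries, with red above and blue below control and each block ordered by the fold change at 200 µM. WARS1 is red in the 200 µM columns alone, AARS1, YARS1 and IARS1 are red in both treated groups, and QARS1, VARS1 and AARS2 are red at 100 µM alone; the third 200 µM library differs from its group in many mitochondrial rows.

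WARS1, on chromosome 14 at 100333788 to 100376805 (GRCh38, minus strand), had the largest fold change of the cytosolic genes at 200 µM. Its level was 271, 272 and 267 CPM in the control libraries, 285, 284 and 268 CPM at 100 µM, and 534, 533 and 653 CPM at 200 µM. The 200 µM libraries lay far above all others, and control and 100 µM overlapped. WARS1 rose by 1.09 ± 0.09 (2.12-fold, adjusted p = 3.57e-05) at 200 µM against control and by 1.04 ± 0.09 (adjusted p = 2.46e-05) at 200 µM against 100 µM, while the value at 100 µM against control was 0.05 ± 0.09 (adjusted p = 0.706). Without the third 200 µM library the rise against control was 1.00. It was called under all 19 alternative settings. Of its overlapping neighbours, WDR25 had a log2 fold change of 0.22 ± 0.13 at 200 µM and was not called.

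GARS1, on chromosome 7 at 30594681 to 30634033 (plus strand), differed between each pair of groups. It had 225, 225.5 and 220.4 CPM in control, 285, 279 and 278 CPM at 100 µM, and 347, 345 and 447 CPM at 200 µM, with no overlap between any of the groups. The log2 fold change was 0.76 ± 0.10 (adjusted p = 0.000487) at 200 µM against control, 0.33 ± 0.10 (adjusted p = 0.0314) at 100 µM against control and 0.43 ± 0.10 (adjusted p = 0.00761) at 200 µM against 100 µM. The call at 100 µM was lost whenever a control or a 100 µM library was left out and in the fit with replicate numbers as a block, with adjusted p up to 0.0934. The call at 200 µM held under all 19 settings and was 0.64 without the third 200 µM library.

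**Figure D3:**
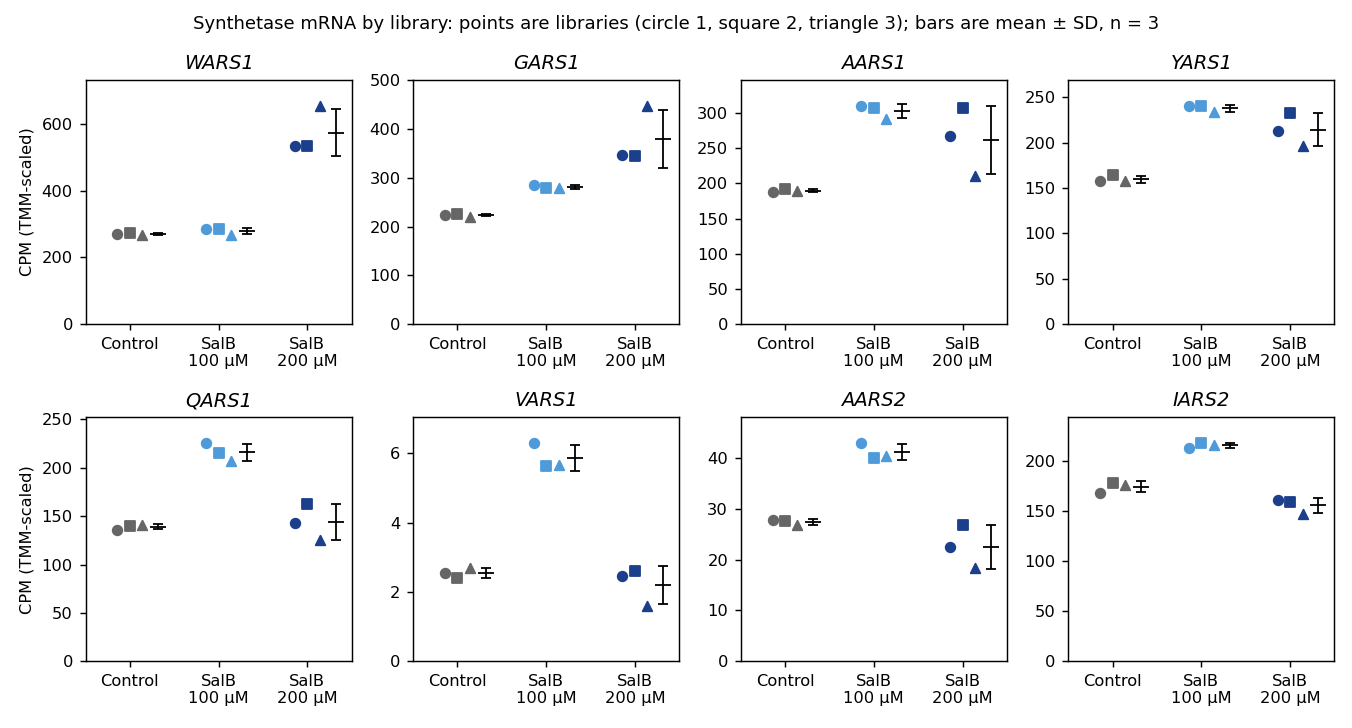
CPM of 8 synthetase mRNAs in control, SalB 100 µM and SalB 200 µM libraries; symbols are libraries 1 (circle), 2 (square) and 3 (triangle) of a group, bars are mean ± SD (n = 3), and each axis starts at 0. WARS1 is set apart at 200 µM, with 533 to 653 CPM, GARS1 steps up at each dose, AARS1 and YARS1 are above control at both doses, and QARS1, VARS1, AARS2 and IARS2 are highest at 100 µM.

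AARS1, YARS1 and IARS1, the alanine, tyrosine and isoleucine enzymes, were higher than control at both doses. AARS1 had 187, 192 and 189 CPM in control, 310, 307 and 292 CPM at 100 µM, and 267, 307 and 210.3 CPM at 200 µM. Both treated groups lay above control, the 200 µM group with a wide spread. AARS1 rose by 0.68 ± 0.12 (adjusted p = 0.00266) at 100 µM and by 0.46 ± 0.12 (adjusted p = 0.0152) at 200 µM, and the 200 µM call was lost without control replicate 1 and in the fit of those groups alone (adjusted p up to 0.055). YARS1, whose protein also has a secreted cytokine-like form, had 157.5, 164 and 158 CPM in control, 240.5, 240 and 233 CPM at 100 µM, and 213, 233 and 196.5 CPM at 200 µM. Neither treated group overlapped control. YARS1 rose by 0.57 ± 0.08 (adjusted p = 0.000589) at 100 µM and by 0.42 ± 0.08 (adjusted p = 0.00259) at 200 µM, called in all 19 settings at each dose. Removing the trends with GC content and length reduced its 100 µM value to 0.24.

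IARS1, a member of the multisynthetase complex, had 189, 193 and 189.5 CPM in control, 275, 235 and 281 CPM at 100 µM, and 217, 236 and 265 CPM at 200 µM. The treated groups overlapped each other and both lay above control. It rose by 0.47 ± 0.10 (adjusted p = 0.00507) at 100 µM and by 0.33 ± 0.10 (adjusted p = 0.0243) at 200 µM, and the 200 µM call was lost without any 1 of the control libraries (adjusted p up to 0.0788). SARS1, the serine enzyme, had 227, 243 and 232.5 CPM in control, 251, 249 and 236.5 CPM at 100 µM, and 264, 283 and 268 CPM at 200 µM. Only the 200 µM libraries cleared control. SARS1 rose by 0.21 ± 0.07 (adjusted p = 0.0314) at 200 µM, a call that held in 10 of 19 settings.

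QARS1, MARS1 and VARS1, the glutamine, methionine and valine enzymes, rose at 100 µM and were lower again at 200 µM. VARS1 had 2.56, 2.41 and 2.70 CPM in control, 6.29, 5.65 and 5.67 CPM at 100 µM, and 2.47, 2.60 and 1.59 CPM at 200 µM. The 100 µM libraries stood above all others. VARS1 rose by 1.20 ± 0.19 (adjusted p = 0.00149) at 100 µM against control, and at 200 µM it was lower than at 100 µM by a log2 fold change of -1.40 ± 0.19 (adjusted p = 0.000421). With GC content and length trends removed the 100 µM value was 0.78. QARS1 had 136, 140 and 140.5 CPM in control, 225, 215 and 207 CPM at 100 µM, and 143, 163 and 126 CPM at 200 µM. Its 200 µM libraries overlapped control and its 100 µM libraries overlapped neither. QARS1 rose by 0.64 ± 0.10 (adjusted p = 0.00109) at 100 µM and was lower by -0.58 ± 0.10 (adjusted p = 0.00114) at 200 µM against 100 µM, and both calls held in all 19 settings.

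MARS1 had 198.5, 199 and 202 CPM in control, 297, 278 and 263 CPM at 100 µM, and 223.5, 250.4 and 219.8 CPM at 200 µM. The groups lay in 3 separate ranges with 200 µM between the others. Its log2 fold change was 0.48 ± 0.08 (adjusted p = 0.00159) at 100 µM against control, 0.21 ± 0.08 (adjusted p = 0.0611) at 200 µM against control and -0.27 ± 0.08 (adjusted p = 0.0195) at 200 µM against 100 µM. The call between the doses held in 14 of 19 settings, the value nearest 0 being -0.13, and without the third 200 µM library MARS1 was also called higher than control at 200 µM, at 0.26 (adjusted p = 0.00791). Removing the GC content trend gave 0.30 at 100 µM, and removing the length trend as well gave 0.22, both called. MARS1 shares 7.38% of its exon length with ARHGAP9 and 5.05% with DDIT3, both on the opposite strand. ARHGAP9 had a log2 fold change of 0.4 ± 0.48 at 100 µM and -0.0 ± 0.42 at 200 µM, neither called. DDIT3 had -0.97 ± 0.12 at 100 µM and 1.77 ± 0.12 at 200 µM. The part of these overlaps in the MARS1 counts was not tested.

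**Figure D4:**
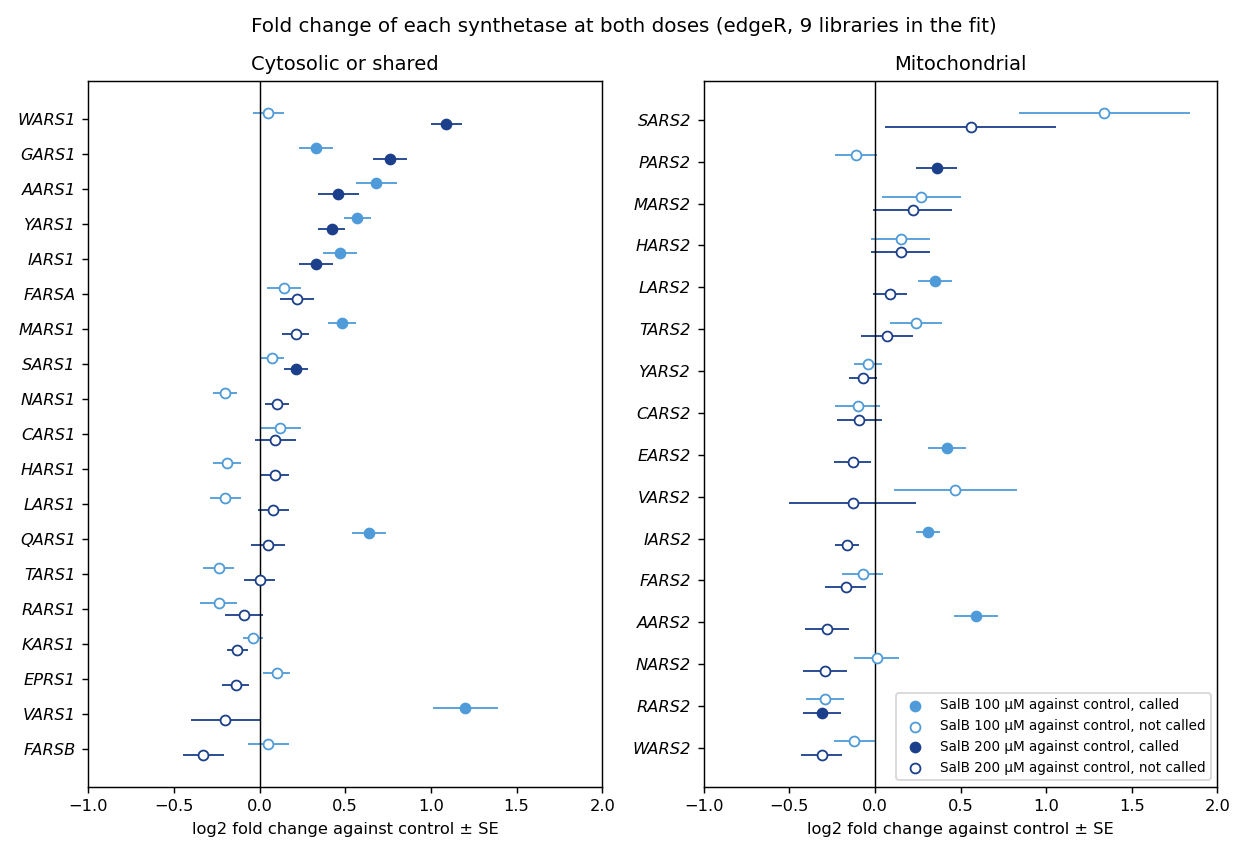
Log2 fold change ± SE of each synthetase at 100 µM (light, upper point) and 200 µM (dark, lower point) against control, with filled points for genes called at an adjusted p under 0.05. Filled points lie to the right of 0 for all genes other than RARS2, WARS1 is filled at 200 µM alone at 1.09, and 4 mitochondrial genes are filled at 100 µM.

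The 10 other cytosolic genes were not called against control at either dose with all 9 libraries. Without the third 200 µM library EPRS1 (-0.21, adjusted p = 0.00649), RARS1 (-0.22, adjusted p = 0.0029) and FARSB (-0.47, adjusted p = 0.00018) were called lower and FARSA (0.31, adjusted p = 0.00795) higher at 200 µM, where 27.9% of all genes were higher and 25.9% lower. KARS1 had 349, 345 and 342 CPM in control, 350.5, 328 and 331.5 CPM at 100 µM, and 320, 314 and 313 CPM at 200 µM, with a log2 fold change of -0.13 ± 0.06 (adjusted p = 0.125) at 200 µM. EPRS1 had 369, 372 and 342 CPM in control, 394.5, 386 and 378 CPM at 100 µM, and 317, 302.5 and 363 CPM at 200 µM. EPRS1 was lower at 200 µM than at 100 µM, by -0.24 ± 0.08 (adjusted p = 0.0409), a call that held in 9 of 19 settings.

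Of these 10 genes, HARS1, LARS1, NARS1, RARS1 and TARS1 had all 3 of their 100 µM libraries below all control libraries. Their log2 fold changes at 100 µM lay between -0.24 and -0.19, and the lowest adjusted p was that of NARS1, 0.05 to the digits printed and above the threshold. All 5 were called lower at 100 µM when the third 200 µM library was left out, with values from -0.22 to -0.17, or when the 100 µM and control groups were fitted alone. Without that library 28.7% of all genes were higher and 27.5% lower. With the GC content trend removed, HARS1 alone of the 5 was called lower, at -0.19. The same held with the length trend removed as well, at -0.29. The share of all genes with every 100 µM library below control was not determined. TARS1 illustrates the size of the difference, with 520, 515 and 493 CPM in control, 444, 428.5 and 419 CPM at 100 µM, and 475, 468 and 585 CPM at 200 µM. The 3 remaining genes, CARS1 (cysteine) and the phenylalanine subunits FARSA and FARSB, had log2 fold changes between 0.05 and 0.14 at 100 µM. At 200 µM FARSB had -0.33 ± 0.12 (adjusted p = 0.0546).

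Sorted by the multisynthetase complex, its enzymes and its scaffolds had different counts. Of 7 complex enzymes among the members (EPRS1, IARS1, KARS1, LARS1, MARS1, QARS1 and RARS1), 3 were higher and none lower at 100 µM, with a median of 0.10, and IARS1 alone was higher at 200 µM. None of the 3 scaffold genes was higher at either dose, and AIMP1 and EEF1E1 were lower at 100 µM. Among all genes 18.9% were higher and 18.2% lower at 100 µM, and 19.8% and 17.5% at 200 µM. AIMP1 had 144, 149.9 and 140.3 CPM in control, 93.0, 98.4 and 98.2 CPM at 100 µM, and 128, 109.8 and 151 CPM at 200 µM. AIMP1 fell by 0.58 ± 0.11 (adjusted p = 0.00349) and EEF1E1 fell by 0.41 ± 0.11 (adjusted p = 0.0145) on the log2 scale at 100 µM, and AIMP2 had 0.08 ± 0.10. Neither scaffold was called lower at 100 µM once the GC content trend was removed, and with the length trend removed as well 1 scaffold was called higher and the median turned to 0.20. By catalytic fold, 8 of 18 class I and 3 of 16 class II synthetases were higher at 100 µM, and 3 of 18 and 4 of 16 at 200 µM, beside 18.9% and 19.8% of all genes. The difference between the classes was not tested. EPRS1, which carries an enzyme of each class, is in neither count.

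Among the mitochondrial genes AARS2, EARS2, IARS2 and LARS2 were higher at 100 µM than in control, and the first 3 were lower at 200 µM than at 100 µM. AARS2, the alanine enzyme, had 27.8, 27.5 and 26.7 CPM in control, 42.8, 40.0 and 40.4 CPM at 100 µM, and 22.4, 26.8 and 18.3 CPM at 200 µM. Its 100 µM libraries stood above all others. AARS2 rose by 0.59 ± 0.13 (adjusted p = 0.00677) at 100 µM against control and was lower by -0.87 ± 0.13 (adjusted p = 0.000628) at 200 µM against 100 µM. With the GC content trend removed the 100 µM value was 0.27 and still called, and AARS2 was then also called lower than control at 200 µM, at -0.40. EARS2, the glutamate enzyme, had 41.1, 43.1 and 44.9 CPM in control, 62.0, 57.1 and 53.7 CPM at 100 µM, and 40.7, 43.8 and 33.7 CPM at 200 µM. It rose by 0.42 ± 0.11 (adjusted p = 0.0158) at 100 µM and was lower by -0.55 ± 0.11 (adjusted p = 0.00349) at 200 µM against 100 µM.

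IARS2, the most abundant mitochondrial member, followed the same course on a smaller scale. It had 168, 179 and 177 CPM in control, 213, 218 and 216.5 CPM at 100 µM, and 161.5, 159 and 147 CPM at 200 µM. The 3 groups did not overlap. IARS2 rose by 0.31 ± 0.07 (adjusted p = 0.00717) at 100 µM, and its value at 200 µM against 100 µM was -0.47 ± 0.07 (adjusted p = 0.000523), called in all 19 settings in both comparisons. LARS2, the leucine enzyme, had 40.1, 43.9 and 41.2 CPM in control, 56.8, 51.7 and 51.4 CPM at 100 µM, and 44.5, 49.1 and 39.7 CPM at 200 µM. LARS2 rose by 0.35 ± 0.10 (adjusted p = 0.0206) at 100 µM, and the call was lost in 4 of 19 settings, 3 of them with a control or 100 µM library left out. EARS2 lost its call in 3 settings of that kind, so leaving out control replicate 1 or 100 µM replicate 1 reduced the mitochondrial count at 100 µM to 2. Leaving out the third 200 µM library raised it to 7.

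At 200 µM 2 mitochondrial genes were called, both close to the threshold. PARS2, the proline enzyme, had 8.35, 8.96 and 9.18 CPM in control, 9.28, 7.33 and 7.88 CPM at 100 µM, and 10.5, 11.4 and 12.1 CPM at 200 µM, a rise of 0.36 ± 0.12 (adjusted p = 0.0448) that held in 7 of 19 settings. RARS2, the arginine enzyme, had 56.9, 57.6 and 54.5 CPM in control, 46.5, 45.3 and 46.2 CPM at 100 µM, and 41.8, 40.8 and 53.5 CPM at 200 µM, a fall with a value of -0.31 ± 0.11 (adjusted p = 0.0482) that held in 6 of 19 settings. The 10 other mitochondrial genes were not called against control. Without the third 200 µM library, the 200 µM count became 4 higher (HARS2, MARS2, PARS2 and TARS2) and 2 lower (RARS2 and WARS2). MARS2, the methionine enzyme, had 17.9 and 18.7 CPM in the first and second 200 µM libraries, 9.09 CPM in the third and 12.7 to 13.2 CPM in control.

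SARS2, the serine enzyme, had the largest log2 fold change of all 35 at 100 µM, 1.34 ± 0.50, and was not called (adjusted p = 0.0628). Its libraries scattered widely, and the groups did not overlap, with 15.2, 7.75 and 6.29 CPM at 100 µM, against 3.92, 1.48 and 6.11 CPM in control. A readthrough transcript of the same locus holds 71.9% of its 50-base windows, so the counts of SARS2 are uncertain. VARS2 shares 30.1% of its windows with GTF2H4 and had 0.556 to 2.08 CPM over the 9 libraries. No call was made on either gene in any of the 3 comparisons.

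Set side by side by amino acid, both members of a pair rose at 100 µM for alanine and isoleucine. The cytosolic member alone was called for methionine, valine and tyrosine, and the mitochondrial member alone for glutamate and leucine. For leucine the values had opposite signs, -0.20 for LARS1, not called, and 0.35 for LARS2. At 200 µM no pair had both members higher. The cytosolic member alone was called for alanine, isoleucine, serine, tryptophan and tyrosine, with WARS1 at 1.09 beside WARS2 at -0.31 ± 0.12 (adjusted p = 0.0671). The difference between partners was not tested.

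Between the doses, 5 cytosolic genes were higher and 5 lower at 200 µM than at 100 µM, where 22.4% of all genes were higher and 21.9% lower. WARS1 led the genes that were higher, followed by GARS1, NARS1 at 0.29 ± 0.07 (adjusted p = 0.00769), HARS1 at 0.28 ± 0.08 (adjusted p = 0.0152) and LARS1 at 0.27 ± 0.09 (adjusted p = 0.0281). VARS1 led those that were lower, followed by QARS1, FARSB at -0.38 ± 0.12 (adjusted p = 0.0277), MARS1 and EPRS1. HARS1, LARS1, FARSB, MARS1 and EPRS1 each lost the call in at least 1 fit without a 100 µM library, and the calls held in 16, 12, 14, 14 and 9 of 19 settings in that order. Without the third 200 µM library IARS1 (-0.23), RARS2 (-0.17) and WARS2 (-0.33) were called lower as well, and TARS1 (0.12) and HARS2 (0.18) higher. Among mitochondrial genes PARS2 was higher at 0.47 ± 0.12 (adjusted p = 0.0122), and AARS2, EARS2 and IARS2 were lower. Without the second or the third 100 µM library 3 cytosolic genes were higher. Without the first or the second 100 µM library, or the first 200 µM library, 2 were lower, and without the third 100 µM library 3 were. PARS2 was not called without the second or the third 100 µM library, and 5 mitochondrial genes were lower without the third 200 µM library. In all, 6 genes were higher at 100 µM than in control and lower at 200 µM than at 100 µM, namely AARS2, EARS2, IARS2, MARS1, QARS1 and VARS1. Both comparisons use the same 100 µM libraries, so the 2 calls are not independent. The share of all genes with both calls was not determined.

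The promoters of the members were searched for 3 short motifs, each on both strands, in the RefSeq windows of 250 bases before to 50 after a start (GRCh38.p14). Of the 35 genes 30 had a window, 39 windows in all, and AARS2, LARS1, VARS1, VARS2 and YARS1 had none in the table. TGATGNAA is the core of the element that ATF4 binds together with C/EBP proteins. It stood in 8 of the 39 windows, from 8 of the 30 genes, and in 3.62% of all 35116 promoter windows. These genes were AARS1, CARS1, GARS1, IARS1, MARS1, NARS1, TARS1 and YARS2. The windows of the cytosolic genes among them are shown 5′ to 3′ on the strand of the gene, with the match in capitals, because some of these genes were called and others were not:
MARS1: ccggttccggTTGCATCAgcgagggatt
IARS1: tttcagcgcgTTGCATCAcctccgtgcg
AARS1: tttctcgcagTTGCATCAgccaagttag
CARS1: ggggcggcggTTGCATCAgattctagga
TARS1: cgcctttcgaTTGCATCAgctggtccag
NARS1: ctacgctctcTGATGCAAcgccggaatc
GARS1: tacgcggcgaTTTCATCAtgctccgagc

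MARS1, IARS1, AARS1, CARS1 and TARS1 hold the same 8 letters, TTGCATCA, and their log2 fold changes at 100 µM were 0.48, 0.47, 0.68, 0.12 and -0.24. The first base of the match lay at -4 in MARS1, -13 in IARS1, -187 in AARS1, -2 in CARS1 and 2 in TARS1, counted from 0 at the start. Of the 8 genes with the motif, 4 were higher at 100 µM and 3 at 200 µM, against 4 and 3 of the 22 genes that had a window without it. The same letters thus stood before called and uncalled members, and a match is a description of the sequence only.

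GAAANNGAA is the core of the element that interferon-regulated factors bind. It stood in 5 of the 39 windows, from EARS2, GARS1, IARS1 and WARS1, and in 8.11% of all promoter windows. CACGTG is the E-box that MYC and its partners bind. It stood in 5 of the 39 windows, from CARS2, EARS2, IARS1 and MARS2, and in 7.26% of all promoter windows. In IARS1 the 2 motifs adjoin without overlapping. The 250 bases before the WARS1 start that holds the interferon motif are given below (chr14:100375348-100375597, minus strand), since WARS1 had the largest change at 200 µM, and below it the 250 bases before the GARS1 start that holds the ATF4 motif (chr7:30594628-30594877, plus strand), with matches in capitals:
WARS1: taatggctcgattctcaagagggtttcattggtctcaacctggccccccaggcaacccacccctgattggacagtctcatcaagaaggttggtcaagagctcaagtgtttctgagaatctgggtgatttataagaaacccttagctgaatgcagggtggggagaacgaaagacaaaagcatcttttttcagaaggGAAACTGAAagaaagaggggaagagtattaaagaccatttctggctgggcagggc
GARS1: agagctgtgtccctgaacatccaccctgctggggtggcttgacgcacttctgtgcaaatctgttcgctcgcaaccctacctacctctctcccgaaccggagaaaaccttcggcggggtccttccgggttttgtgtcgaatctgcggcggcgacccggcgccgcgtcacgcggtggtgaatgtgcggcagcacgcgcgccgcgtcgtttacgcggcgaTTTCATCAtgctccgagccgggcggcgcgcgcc

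The match in WARS1 begins at -55 and that in GARS1 at -33. The other RefSeq window of WARS1 holds none of the 3 motifs.

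Most genes of the ATF4 list outside the synthetases were higher at 200 µM, ATF4 itself not among them. Of 35 tested ATF4 regulators and targets other than synthetases, 21 were higher and 4 lower at 200 µM, with a median of 0.48, against 7 higher and 9 lower at 100 µM, with a median of 0.02. For this list and those below, the shares of all genes tested were 19.8% higher and 17.5% lower at 200 µM. At 100 µM they were 18.9% higher and 18.2% lower. ATF4 mRNA itself was lower at 100 µM, at -0.26 ± 0.07 (adjusted p = 0.0223), and was not called at 200 µM. The ATF4 call was lost without any 1 of the control libraries and without the second or the third 100 µM library (adjusted p up to 0.115). Total-count scaling of all 9 libraries also ended it (edgeR adjusted p = 0.0642). DDIT3, which encodes the stress factor CHOP, had 33.9, 34.7 and 35.7 CPM in control, 17.6, 18.1 and 17.7 CPM at 100 µM, and 128, 133 and 95.0 CPM at 200 µM. It fell at 100 µM and rose at 200 µM, by 1.77 ± 0.12 (adjusted p = 1.38e-05). NUPR1 and ATF3, transcriptional stress regulators, had the largest values at 200 µM, 3.12 ± 0.23 and 2.99 ± 0.16. TRIB3, a pseudokinase that restrains ATF4 signalling, rose by 1.38 ± 0.23 (adjusted p = 0.00149), and CHAC1, which degrades glutathione, by 1.17 ± 0.17 (adjusted p = 0.000644).

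The amino acid genes of that list were divided. ASNS, asparagine synthetase, rose by 0.29 ± 0.07 (adjusted p = 0.00822) at 200 µM and had 0.09 ± 0.07 at 100 µM. PSAT1 and PSPH of serine synthesis were lower at 200 µM, at -0.58 ± 0.11 and -0.50 ± 0.10. At 100 µM the largest rises of the list were those of SLC7A5, a transporter of large neutral amino acids, at 1.20 ± 0.14 (adjusted p = 0.000242), and of PHGDH, which starts serine synthesis, at 0.95 ± 0.17 (adjusted p = 0.00294). The largest falls there were those of DDIT3 and of VEGFA, at -0.95 ± 0.08 (adjusted p = 3.97e-05). In the 100 µM libraries 7 cytosolic synthetases were called higher than in control, and ATF4 and DDIT3 mRNA were called lower. The part of ATF4 in the synthetase values was not tested. GCN1, a partner of the kinase GCN2, rose by 1.01 ± 0.12 (adjusted p = 0.000335) at 100 µM, and EIF2AK4, which encodes GCN2, had 0.24 ± 0.08 (adjusted p = 0.0445) at 100 µM and 0.30 ± 0.08 (adjusted p = 0.0177) at 200 µM. Of the 13 genes in that list 2 were higher and 2 lower at 100 µM, those lower being EIF2S1 at -0.40 ± 0.11 and EIF2AK3 at -0.27 ± 0.09, and EIF2B4 was higher at 200 µM, at 0.36 ± 0.11.

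**Figure D5:**
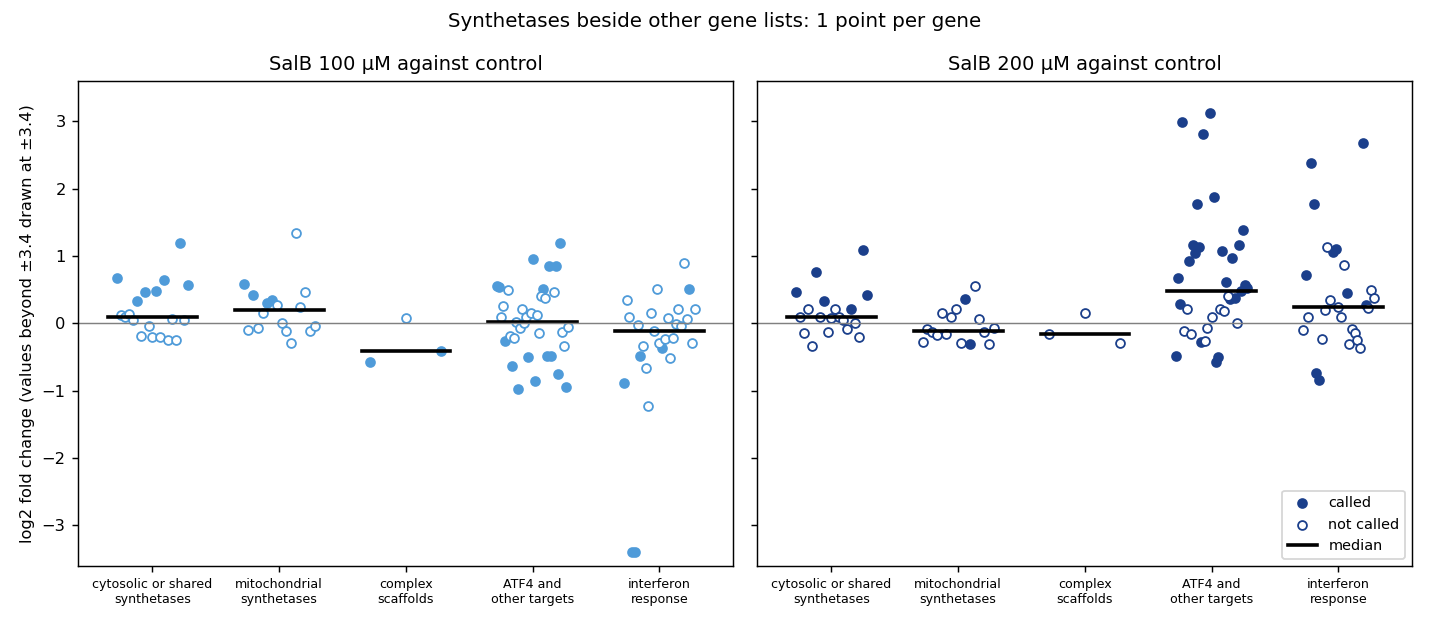
Log2 fold change of each gene at 100 µM (left) and 200 µM (right) against control for the synthetases and 3 other lists, with filled points for called genes and a bar at the list's median; 2 values beyond the axis are drawn at its edge. At 200 µM the ATF4 list lies highest, with a median of 0.48, while the medians of the synthetase lists are 0.09 and -0.11.

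Interferon response genes were searched because WARS1 belongs to that response in other settings. Of 27 tested, 8 were higher and 2 lower at 200 µM, with a median of 0.24, and 1, STAT2 at 0.51 ± 0.13, was higher and 5 lower at 100 µM. Beside them, 19.8% of all genes were higher and 17.5% lower at 200 µM, and 18.9% and 18.2% at 100 µM. IRF1 was not called at 200 µM, at 0.09 ± 0.12 (adjusted p = 0.589), and was lower at 100 µM, at -0.36 ± 0.12 (adjusted p = 0.0466). Leaving out any 1 of the control or 100 µM libraries ended the IRF1 call (adjusted p up to 0.186). With all 9 libraries it was also lost under RLE scaling (edgeR adjusted p = 0.0521), total-count scaling (0.126), no filter (0.063) and assembled transcripts kept (0.0565). SOCS1, a feedback inhibitor of cytokine signalling, rose by 2.68 ± 0.38 (adjusted p = 0.000678) at 200 µM. That value rests on few reads, with SOCS1 at 0.135 to 0.276 CPM in control and 1.03 to 1.85 CPM at 200 µM. CXCL10, a chemokine, had 2.53 to 3.58 CPM in control, 0 to 0.0649 CPM at 100 µM and 13.4 to 16.2 CPM at 200 µM, and no fold is given where its count was near 0. CXCL11, a related chemokine, had 0 to 0.0649 CPM at 100 µM, against 2.79 to 3.07 CPM in control. GBP2 and GBP1, guanylate-binding proteins of the same response, were lower at 200 µM, at -0.84 ± 0.08 and -0.74 ± 0.17. In the same 200 µM libraries WARS1 and SOCS1 were higher than in control and both guanylate-binding genes were lower.

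Genes that make, modify or use transfer RNA are set beside the shares of all genes. Those were 18.9% higher and 18.2% lower at 100 µM, and 19.8% and 17.5% at 200 µM. Of 41 tested genes of cytosolic and nuclear transfer RNA maturation and export, 2 were higher and 5 lower at 100 µM and 3 higher and 6 lower at 200 µM. At 100 µM ELAC2 and XPO5 were higher, at 0.47 ± 0.07 and 0.26 ± 0.08, and ADAT2 and RPP30 led the lower ones, at -0.70 ± 0.14 and -0.48 ± 0.11. RPP25 was higher at 200 µM, at 0.48 ± 0.16. XPOT, the exporter of transfer RNA, rose by 0.52 ± 0.09 (adjusted p = 0.00164) at 200 µM, and OSGEP and ELAC1, of threonylcarbamoylation and of 3′ end processing, fell there, with -1.16 ± 0.16 and -1.08 ± 0.17. Among 17 genes of RNA polymerase III and its factors, none was higher and 4 were lower at 100 µM, POLR3F and BDP1 the most, at -0.67 ± 0.16 and -0.65 ± 0.17. At 200 µM 3 were higher, led by POLR3E at 0.61 ± 0.19 and POLR3A at 0.38 ± 0.09, and POLR3K was lower at -0.52 ± 0.15. The 28 genes of mitochondrial transfer RNA maturation, charging helpers and elongation had 1 higher and 4 lower at each dose. At 100 µM the mitochondrial synthetases had 4 higher and none lower. NSUN3 and TRMT10C, which modify mitochondrial transfer RNA, were lower at 100 µM, at -0.68 ± 0.12 and -0.53 ± 0.14. At 200 µM TRNT1 and TRMT10C were the lowest called, at -0.59 ± 0.12 and -0.48 ± 0.14, and MTIF2 was higher, at 0.47 ± 0.10.

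Elongation, quality control and growth signalling did not share a direction. The counts stand beside 18.9% of all genes higher and 18.2% lower at 100 µM, and 19.8% and 17.5% at 200 µM. Of 9 cytosolic elongation factors, 3 were higher and 2 lower at 100 µM, with EEF2K at 0.59 ± 0.11, EEF2 at 0.50 ± 0.12, EEF1A1 at -0.56 ± 0.15 and EEF1B2 at -0.41 ± 0.13. At 200 µM EEF1A2 and EEF2 were higher, at 0.89 ± 0.12 and 0.42 ± 0.12. Of 10 genes of editing and ribosome quality control, 2 were higher and 5 lower at 100 µM, with ZNF598 at 0.71 ± 0.15, ANKRD16 at 0.42 ± 0.14, LTN1 at -0.64 ± 0.15 and GTPBP2 at -0.45 ± 0.10. At 200 µM ZNF598 was higher, at 0.74 ± 0.15, and 3 were lower, led by DTD2 at -0.45 ± 0.14 and DTD1 at -0.36 ± 0.08. Among 23 genes of the mTORC1 pathway, 6 were higher and 3 lower at 100 µM and 7 higher and 4 lower at 200 µM. RRAGD and RRAGC, GTPases through which amino acids act on mTORC1, rose by 1.21 ± 0.10 and 1.20 ± 0.08 at 200 µM, where RPS6KB2 and RRAGA were lower, at -0.56 ± 0.17 and -0.51 ± 0.15. At 100 µM TSC2 and MTOR were higher, at 0.74 ± 0.10 and 0.72 ± 0.08, and SLC38A9 and RHEB lower, at -0.83 ± 0.13 and -0.71 ± 0.09. Of 9 genes of the MYC network, 2 were higher and 1 lower at 200 µM. MXD1, which antagonises MYC, rose there by 1.86 ± 0.15 (adjusted p = 2.83e-05) and MYC by 0.91 ± 0.10 (adjusted p = 0.00019), and MXD3, of the same family as MXD1, was lower at -1.51 ± 0.14 (adjusted p = 7.91e-05). At 100 µM MXD4 and MNT were higher, at 0.82 ± 0.20 and 0.76 ± 0.13, and 3 genes were lower, led by MXI1 at -0.85 ± 0.15 and MXD1 at -0.71 ± 0.15.

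The fold changes of the members went with the GC content of their transcripts, as those of other genes did. Across the 35 members, which share libraries and are no independent replicates, the rank correlation of GC content with the log2 fold change was 0.64 at 100 µM and 0.31 at 200 µM, beside 0.48 and 0.22 across 13874 genes. The 200 µM libraries were split on this trend. The median log2 level relative to control, in genes of highest minus lowest GC content, was 0.48 and 0.96 in the first and second and -0.31 in the third. It was 0.69 to 0.93 in the 100 µM libraries. Of the 17 members above the median GC content of 50.8%, 7 were higher at 100 µM, against 4 of the 18 at or below it. The calls were repeated with this trend removed from each library. AARS1, IARS1, MARS1, QARS1, VARS1, YARS1, AARS2 and IARS2 were called higher at 100 µM under that correction as under all 19 settings. With it, EPRS1 and FARSB were also called higher, at 0.24 and 0.26, and HARS1 and CARS2 lower, at -0.19 and -0.31.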

How the data were processed

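Gene counts of 9 polyadenylated RNA libraries were analysed as deposited by the authors. HISAT2, featureCounts, FastQC and DESeq2 and the GRCh38 build are named in the submitters' processing notes, with no versions, and no strand setting is stated. Rows of 2142 assembled transcripts without a gene name were left out of library sizes and tests. Genes passing the filterByExpr function of edgeR 4.0.16 in R 4.3.3 were scaled by TMM and fitted over all 9 libraries with the robust quasi-likelihood test, leaving 6 residual degrees of freedom. P-values were adjusted by Benjamini-Hochberg over all genes tested, with a threshold of 0.05, and SE was derived from the F statistic of each test. The script was tested on simulated data. Members and gene lists were chosen with earlier results of these data known. Values per library are given for members called against control and for WARS1, KARS1, GARS1, QARS1, EPRS1 and MARS1, and for a few more chosen after their values were seen (TARS1, MARS2, SARS2 and AIMP1 among them). Outside the synthetases, fixed genes and the called genes with the largest changes of each list are named. Alternatives were RLE and total-count scaling, DESeq2, other filters, fits of 2 groups alone, a replicate block, GC content and length corrections, assembled transcripts kept, and leaving out each library. VARS2, VARS1 and SARS2 had the lowest control levels in CPM and so the fewest reads behind their values. Sequences are from RefSeq, GRCh38.p14.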

Additional observations from a re-analysis of the deposited data

How the results depend on the processing

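Each result was recomputed under 19 alternatives. At 100 µM against control the count of all genes called was 5181, and 8417 with those groups fitted alone, with 3469 to 7943 when 1 library was left out. Cytosolic genes called lower numbered 3 with DESeq2, 5 with those groups alone, 1 with the GC correction and 1 with the GC and length correction, and 0 to 5 with 1 library left out. Mitochondrial genes called higher numbered 7 with those groups alone and 2 to 7 with 1 library left out, and called lower 1 with DESeq2, the groups alone and either correction, and 0 to 1 with 1 library left out. At 200 µM against control, cytosolic genes called higher ranged over 3 to 8 with 1 library left out. Cytosolic genes called lower numbered 1 with total-count scaling, 2 with DESeq2, 3 with the GC correction and 2 with the GC and length correction, and 0 to 3 with 1 library left out. Mitochondrial genes called higher numbered 0 with total-count scaling, no filter, the groups alone, the replicate block or the GC correction, and 0 to 4 with 1 library left out. Those called lower numbered 0 with RLE scaling, no filter, the groups alone or the replicate block, 2 with total-count scaling, 3 with DESeq2 and either correction, and 0 to 2 with 1 library left out. At 200 µM against 100 µM, cytosolic genes called higher numbered 3 with the groups alone, 8 with either correction and 3 to 6 with 1 library left out, and called lower 2 with the groups alone and 2 to 6 with 1 library left out. Mitochondrial genes called higher there numbered 2 with the GC and length correction and 0 to 2 with 1 library left out, and called lower 5 with the GC correction, 7 with the GC and length correction and 3 to 5 with 1 library left out. HARS2 turned to 0.18 (edgeR adjusted p = 0.0413) at 200 µM against 100 µM without the third 200 µM library. The cause was not tested for any of these. No pairing by replicate number was detected. Deviations from the group means had correlations of -0.16 to 0.03 between same-numbered libraries and up to 0.17 between differently numbered ones. With 3 libraries a group, these values cannot show whether cultures were run in parallel. With numbers as a replicate block the counts of all genes called were 4264 at 100 µM and 4369 at 200 µM against control and 5404 between the doses, and the calls lost among the synthetases were GARS1 at 100 µM, SARS1, PARS2 and RARS2 at 200 µM and EPRS1 and LARS1 between the doses. ATF4 (edgeR adjusted p = 0.0539) and IRF1 (0.0743) also lost theirs at 100 µM.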
